A study of Mus musculus with 16 samples.

Results

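The 39 genes described here are neuronal and neuroendocrine genes that the RE1-silencing transcription factor (REST) represses outside the nervous system, together with Rest itself and Rcor1. They were chosen by name as known targets and partners of REST, with earlier results of these data known. Each name was matched to the gene symbols of both count tables. All 39 were found in both tables, among 56989 genes in the series. Gene expression was measured by RNA-seq in 16 libraries of KPC1199 cells, a mouse pancreatic ductal adenocarcinoma line from spontaneous tumors of mice with Pdx-cre and Trp53 R172H, so that control and edited cells share these alleles. Cells carried either a control guide (sgCtrL, labelled wild type) or a guide against Sin3b (Sin3Bsg1, labelled knockout). They were infected with a Cas9 and guide vector and selected with puromycin, and nothing says that they were single clones. In the untreated experiment 2 libraries were made for each guide without treatment, and in the IFNγ experiment 3 libraries for each guide were made with 10 ng/ml IFNγ for 24 h and 3 without. Nothing in the labels says that the replicates were separate cultures, so the p-values measure the spread between these libraries, which may be technical.

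REST binds a long DNA element, RE1, and holds neuronal genes silent in other tissues. Its amino-terminal part recruits SIN3 proteins with histone deacetylases, and its carboxy-terminal part recruits RCOR1 with HDAC1, HDAC2 and the demethylase KDM1A. Sin3b codes for a SIN3 scaffold, so that its loss poses the question whether genes under REST rise in these epithelial cancer cells. The genes were ordered by role: the repressor and its partner, proteins of the dense-core secretory granule, proteins of synaptic vesicle release, the neuronal cytoskeleton, and channels and signals.

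RE1 has a left and a right part, and the letters CAGCACC (left core) and GGACAGC (right core) were searched on both strands in promoter windows of RefSeq (GRCm38.p6, 250 bases before to 50 bases after a start site). The table held 38 windows for 26 of the 39 members. Rest, Snap25 and Syt7 were among those without a window, so no core could be found for them. The left core stood in 10 of these 38 windows and in 7.14% of all 32851 windows, and the right core in 6 of 38 and in 6.56%. Both cores stood in 5 member windows, of Ptprn2, Rph3a, Scg2, Tubb3 and Unc13a, and in 0.575% of all windows. A stretch that holds a core is shown for those members with a core that the results below turn on. Both stretches are shown for Tubb3, and the one farther from the start site for Syn1, which has another. Stretches from the windows with both cores close together are shown too. Each is 30 bases, 5′ to 3′ on the gene's strand, with the core in capitals (on the opposite strand the cores read GGTGCTG and GCTGTCC), and they lie at chr8:123411420-123411449 (Tubb3, left core), chr8:123411552-123411581 (Tubb3, right core), chr5:24329551-24329580 (Kcnh2), chrX:20921131-20921160 (Syn1), chr8:71671725-71671754 (Unc13a), chr1:79440019-79440048 (Scg2), chr12:116485718-116485747 (Ptprn2) and chr5:121009615-121009644 (Rph3a). Tubb3 and Ptprn2 are on the plus strand, and Kcnh2, Syn1, Unc13a, Scg2 and Rph3a on the minus strand.
Tubb3 left: gatctcggtgccGGTGCTGatgctgcagag
Tubb3 right: cctccgcagcctGCTGTCCgcctgcctttt
Kcnh2: gttcccaccgcgGGTGCTGggctggcggca
Syn1: cactgtcggattCAGCACCgcggtcagagc
Unc13a: aggcGCTGTCCgcgcccccGGTGCTGaagc
Scg2: gccgaggaGCTGTCCGGTGCTGaaacggcc
Ptprn2: ccggtggcGCTGTCCGGTGCTGaagctcgg
Rph3a: cttgcgtcctGGTGCTGTCCgtggtactga
In Rph3a the cores overlapped, with starts 3 bases apart, and in Scg2 and Ptprn2 they followed each other directly with starts 7 bases apart. In Unc13a the starts were 15 bases apart. Read on the opposite strand, where these cores match, the left core preceded the right in Scg2, Ptprn2 and Unc13a. The distance between the cores was not compared with that in RE1. In Rph3a the right core preceded the left, which is not the order of RE1. Ptprn, the member with the largest fall between the guides, held neither core in its 2 windows. The 250 bases before each of its start sites are shown for that reason, at chr1:75264209-75264458 and chr1:75263772-75264021 on the minus strand of GRCm38.p6.
Ptprn first: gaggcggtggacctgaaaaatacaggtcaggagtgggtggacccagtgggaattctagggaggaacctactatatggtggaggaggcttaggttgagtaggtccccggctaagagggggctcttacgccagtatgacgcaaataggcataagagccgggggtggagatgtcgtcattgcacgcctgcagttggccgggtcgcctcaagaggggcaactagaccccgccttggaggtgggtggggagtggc
Ptprn second: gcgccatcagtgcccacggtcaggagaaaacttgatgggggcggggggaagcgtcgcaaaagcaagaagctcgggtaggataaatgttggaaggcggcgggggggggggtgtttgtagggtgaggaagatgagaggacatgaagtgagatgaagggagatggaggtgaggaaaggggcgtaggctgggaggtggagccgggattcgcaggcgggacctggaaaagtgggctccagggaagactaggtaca
A match to these letters describes the window and is no measurement of REST binding.

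The guide was printed to show where Sin3b was cut. It matched GRCm39 exactly once, at chr8:73449982-73450001 on the plus strand, in coding sequence of exon 1 of the 19 exons of Sin3b, and its PAM is in capitals.
Sin3Bsg1: tggctcccgctggggtcgttCGG
Sin3b fell in all 3 comparisons of Sin3Bsg1 with sgCtrL. In the sgCtrL libraries of the untreated experiment it was at 88.6 and 83.4 CPM (counts scaled to the library total adjusted by edgeR's TMM factors). In Sin3Bsg1 it was at 36.5 and 34.1 CPM. Without IFNγ it was at 93.2, 95.6 and 88.5 CPM against 39.3, 38.6 and 39.4 CPM, and with IFNγ at 80.4, 84.3 and 83.9 CPM against 33.6, 37.7 and 35.5 CPM. The log2 fold changes were -1.28, -1.24 and -1.22 (edgeR's quasi-likelihood test, adjusted p = 1.24e-11, 5.10e-10 and 5.21e-10), so transcript of the targeted gene remained at this measure, which does not show whether it codes for protein.

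Estimated counts summed to between 29683181 and 32311721 per library in the untreated experiment and to between 18128055 and 27056903 in the IFNγ experiment. In the IFNγ experiment sgCtrL with IFNγ replicate 1 stood apart from the other libraries of its group: the mean chi-square of its counts against theirs was 22.0 and 18.2 per gene, against 2.40 to 9.22 for all other pairs within groups. The main values that use it were recomputed without it and are given where a call changed or a value moved by over 1.5 times. Markers of ductal epithelium were high in every group, with Krt19, Krt7, Krt8, Krt18, Epcam and Sox9 together at 3093 to 6111 CPM. Islet endocrine markers were close to absent, with Ins1, Ins2, Gcg, Sst, Ppy and Iapp together at 0 to 0.160 CPM. Among 8 markers of neurons, summed at 9.70 to 15.5 CPM, Dcx, Elavl4 and Slc17a6 had 3 counts or fewer in every library. Most of that sum was Map2.

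Too few reads were counted to test many members. edgeR's filter on low counts kept 22 of the 39 in the untreated experiment and 16 of 39 in the IFNγ experiment, and all of these 16 were among the 22. Of the 17 members left out of the test in both, the highest count in a library was 6 in the untreated experiment. The 23 left out of the IFNγ experiment reached at most 7 counts in a library, and 6 of them had no count in any of the 12 libraries. Those never tested were the granule proteins Ptprn2, Chga, Scg2, Scg3, Scg5 and Vgf, the vesicle proteins Syt4, Rab3c and Rph3a, and Stmn2, Stmn3, Gap43, L1cam, Celsr3, Dner, Mapk8ip2 and Gdap1. The counts of these 17 summed to 46 and 47 in the sgCtrL libraries of the untreated experiment and to 46 and 43 in the Sin3Bsg1 libraries. For the 23 left out of the IFNγ experiment the counts without IFNγ summed to 14, 20 and 4 in sgCtrL and to 18, 13 and 21 in Sin3Bsg1, where the groups overlapped. With IFNγ they summed to 14, 18 and 15 in sgCtrL and to 22, 30 and 19 in Sin3Bsg1, so that every Sin3Bsg1 library lay above every sgCtrL library. These sums are not scaled to the library totals and were not tested, and no single gene among them had more than 7 counts in a library.

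**Figure D1:**
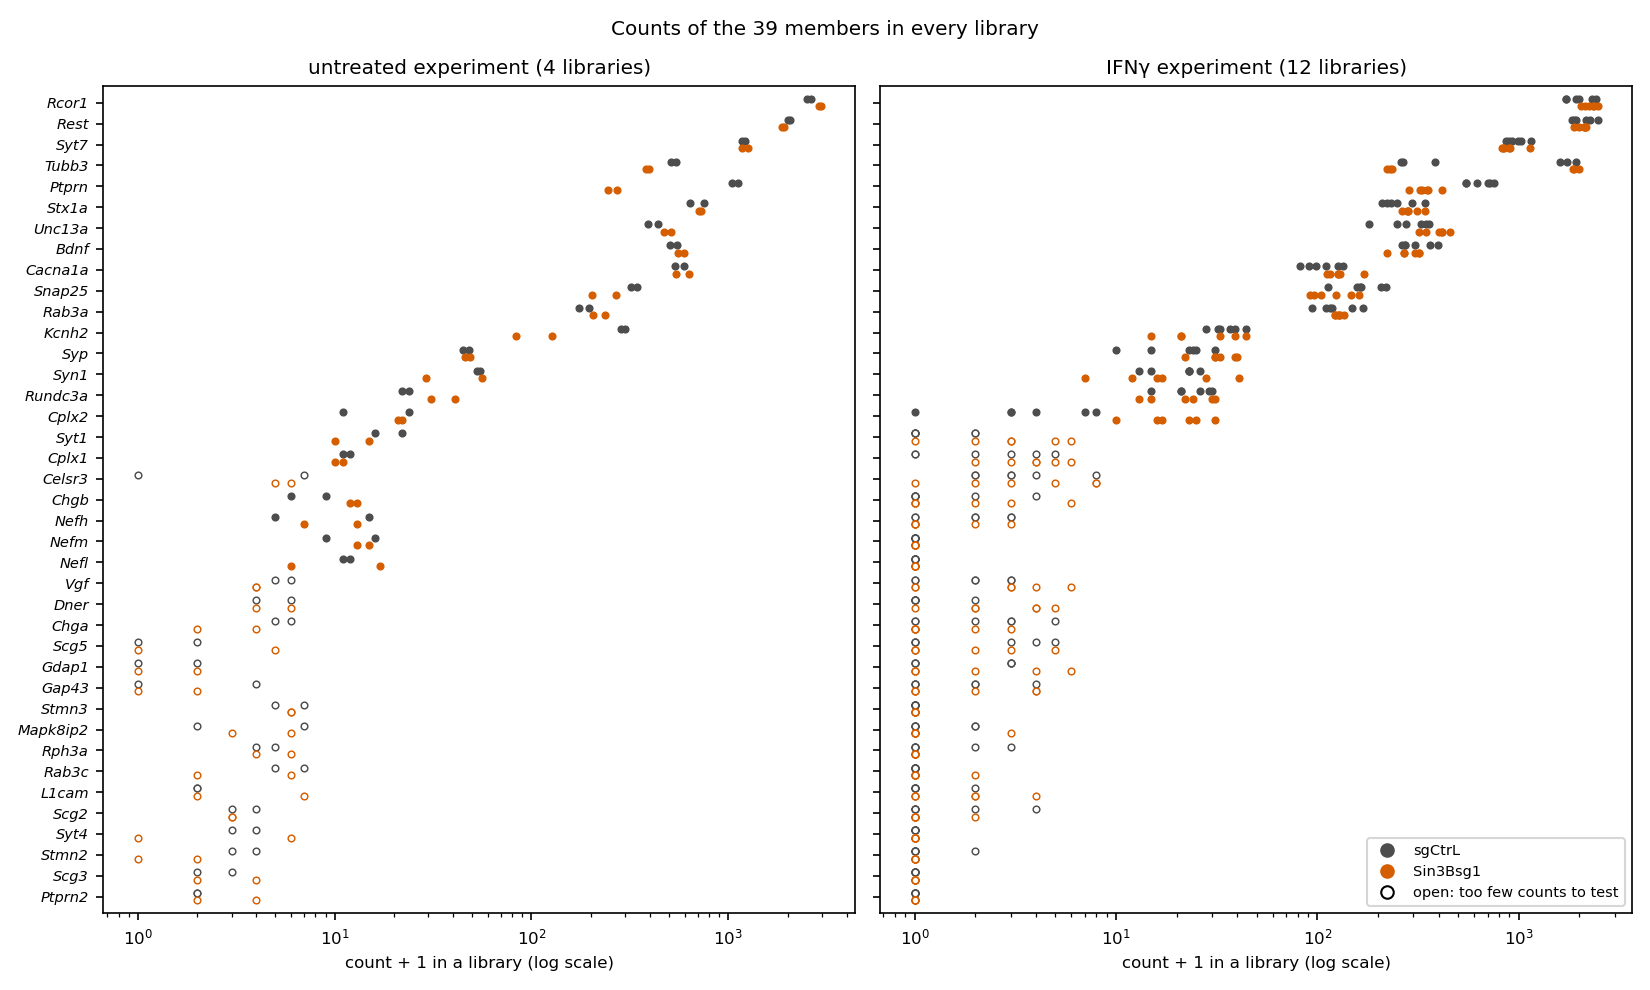
Counts of the 39 members in every library of the untreated experiment (left) and the IFNγ experiment (right), as count + 1 on a log scale, with sgCtrL in grey and Sin3Bsg1 in orange. Filled points are members with enough counts to test (22 and 16), and open points are members left out, none above 7 counts.

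Among the members with enough counts, levels per length spanned a wide range. In sgCtrL cells of the untreated experiment Syt7, a calcium sensor of vesicle release, was highest at 39.1 ± 1.11 TPM (counts scaled by gene length and library total; SD, n = 2), followed by Rcor1 at 31.4 ± 1.30 TPM. Stx1a (22.4 ± 2.43 TPM), Ptprn (21.2 ± 1.25 TPM) and Rest (20.4 ± 0.239 TPM) came next, and these neighbours overlapped in their libraries. Tubb3 was at 19.6 ± 0.624 TPM and Snap25 at 10.8 ± 0.480 TPM. Cplx2 (0.232 ± 0.128 TPM) and the neurofilaments Nefl, Nefm and Nefh were among the lowest, each under 0.3 TPM. In the IFNγ experiment without IFNγ the order of the sgCtrL levels again began with Syt7 (52.1 ± 3.12 TPM, SD, n = 3) and Rcor1 (36.1 ± 0.507 TPM), and then Rest at 31.1 ± 1.56 TPM. Kcnh2 and Cacna1a were at 4.78 and 4.68 TPM in the untreated experiment and at 1.01 and 1.33 TPM in this one, values from 2 tables that no test joins.

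In the untreated experiment none of the 22 members tested was called higher in Sin3Bsg1, and 5 fell: Ptprn, Kcnh2, Snap25, Tubb3 and Rest. Of all 14589 genes tested, 31.2% were called at an adjusted p of 0.05, 15.1% higher and 16.0% lower. The members' share of falls, 5 of 22, was close to that background, and no rise stood against it. With edgeR's quasi-likelihood test 1 member, Rcor1, was higher and 5 were lower at an unadjusted p of 0.05. That limit was passed by 39.7% of all genes in either direction. DESeq2 called 0 higher and 5 lower. Every Sin3Bsg1 library lay above every sgCtrL library for 3 members and below for 8, and for 31.9% and 31.4% of all genes. The median log2 fold change of the 22 members was -0.060, and that of all genes 0.0024.

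In the IFNγ experiment without IFNγ, 1 of the 16 members tested rose, Cplx2, and 6 fell: Ptprn, Tubb3, Snap25, Bdnf, Syt7 and Rest. Cplx2 passed the filter on low counts only through Sin3Bsg1 libraries (below). Of all 14913 genes 17.2% were called, 7.89% higher and 9.32% lower. DESeq2 also called 1 higher and 6 lower. At an unadjusted p of 0.05, passed by 29.4% of all genes, 2 were higher (Cplx2 and Unc13a) and 6 lower. The groups were apart upward for 2 members and downward for 6, and for 18.3% and 20.9% of all genes. The median log2 fold change of the members was -0.15 and that of all genes -0.0090.

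With IFNγ, 0 of the 16 members rose in Sin3Bsg1 and 3 fell: Ptprn, Snap25 and Syt7. Of all genes 16.5% were called, 8.62% higher and 7.89% lower. At an unadjusted p of 0.05 with edgeR, passed by 29.0% of all genes in either direction, 1 member was higher, Cplx2, and 5 lower. DESeq2 called Cplx2 too (1 higher and 3 lower). The groups were apart upward for 2 members and downward for 5, and for 15.4% and 14.9% of all genes. Members had a median log2 fold change of -0.14, and all genes of 0.0036. Without sgCtrL with IFNγ replicate 1 there were 0 higher and 2 lower, Ptprn and Snap25. Ptprn and Snap25 fell in all 3 comparisons, and no member rose in all 3. The comparisons with and without IFNγ share one estimate of the spread and no library.

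**Figure D2:**
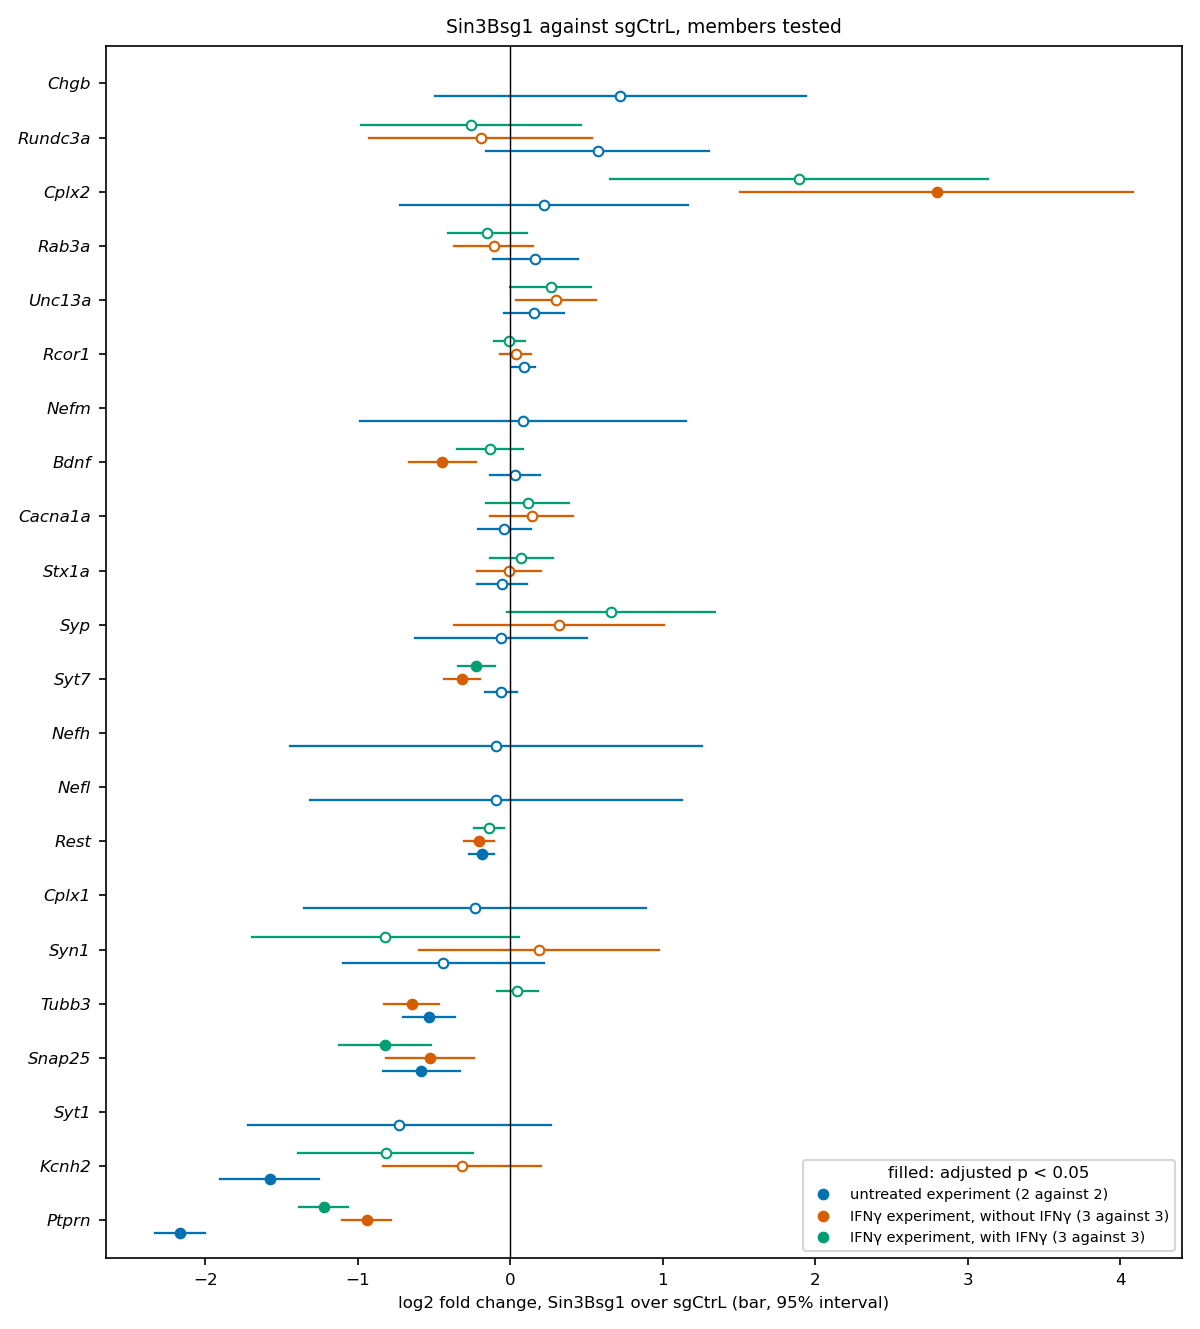
Log2 fold change of Sin3Bsg1 over sgCtrL (x axis) for each member tested (y axis) in the untreated experiment, without IFNγ and with IFNγ. Bars are 95% intervals and filled points have an adjusted p under 0.05. Ptprn is lowest in the untreated experiment at -2.16, and Cplx2 is the only filled point above 0.

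**Figure D3:**
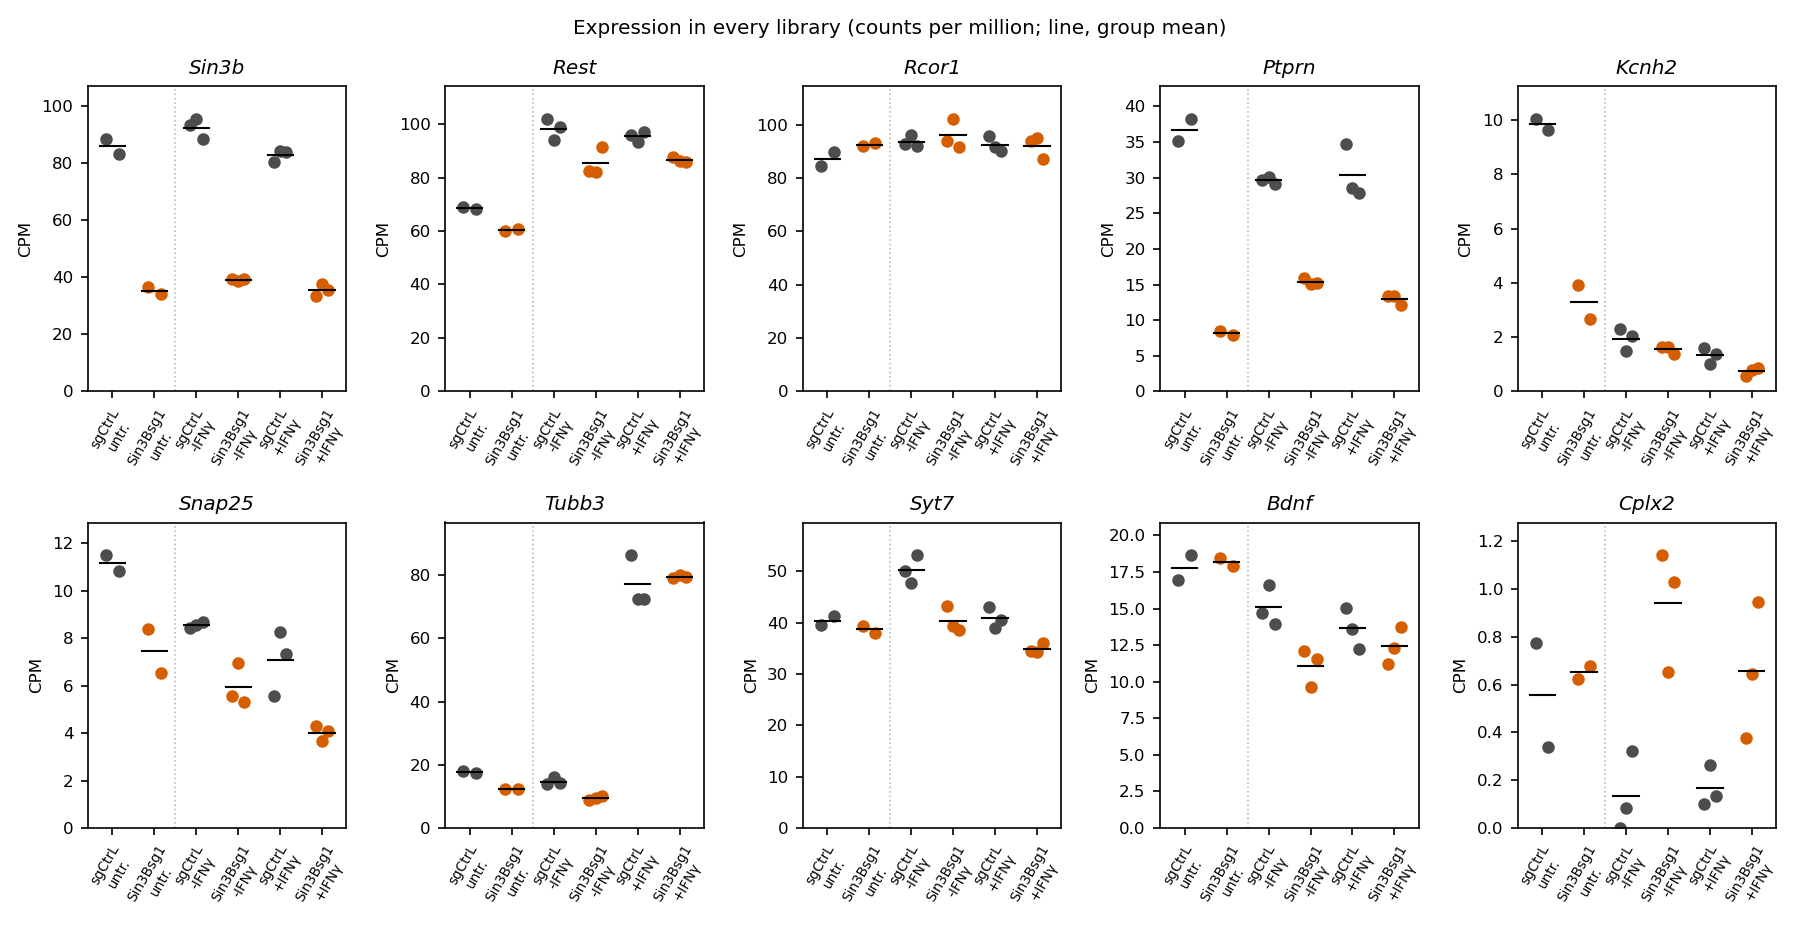
Level of Sin3b and 9 members in every library (y axis, CPM from 0), by group, with a line at the group mean. Ptprn is lower in each Sin3Bsg1 group than in its sgCtrL group without overlap, and Tubb3 is at 72.4 to 86.4 CPM in all 6 libraries with IFNγ.

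Rest, the repressor itself, was slightly lower in Sin3Bsg1. It was at 69.2 and 68.2 CPM in sgCtrL and at 59.9 and 60.7 CPM in Sin3Bsg1 in the untreated experiment. Without IFNγ it was at 102, 94.1 and 98.8 CPM in sgCtrL and at 82.5, 82.2 and 91.3 CPM in Sin3Bsg1, and with IFNγ at 96.0, 93.2 and 96.9 CPM against 87.7, 86.2 and 86.0 CPM. The groups did not overlap in any of the 3 comparisons. The log2 fold change was -0.19 (SE 0.041, adjusted p = 0.00218) in the untreated experiment and -0.20 (SE 0.050, adjusted p = 0.0101) without IFNγ. With IFNγ it was -0.14 (SE 0.050, adjusted p = 0.073), and -0.12 (adjusted p = 0.119) without sgCtrL with IFNγ replicate 1, while with only genes at 10 counts or more in every library it was -0.15 (adjusted p = 0.0457). The call without IFNγ was lost when Sin3Bsg1 replicate 1 (-0.18, adjusted p = 0.0583), Sin3Bsg1 replicate 2 (-0.18, adjusted p = 0.0584) or sgCtrL replicate 1 (-0.18, adjusted p = 0.0591) was left out. Over the 12 libraries of the IFNγ experiment the genes whose level on the log2 scale of CPM followed that of Rest most closely were Cbln1, Usp9x, Itgav, Arhgef6 and Depdc1a, with Pearson's r of 0.951, 0.942, 0.938, 0.936 and 0.927 across libraries that share guide, treatment and depth.

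Rcor1, the scaffold that joins REST to KDM1A, was called in none of the comparisons. Rcor1 was at 84.3 and 89.7 CPM in sgCtrL and 91.9 and 93.1 CPM in Sin3Bsg1 in the untreated experiment, a log2 fold change of 0.088 (95% interval 0.012 to 0.165, adjusted p = 0.102). Without sgCtrL replicate 2 of that experiment it was 0.13 (adjusted p = 0.0438). Rcor1 lay between 87.3 and 102 CPM in all 12 libraries of the IFNγ experiment. The intervals of its log2 fold change were -0.068 to 0.137 without IFNγ and -0.110 to 0.0953 with IFNγ.

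Ptprn fell most. It codes for a transmembrane protein of dense-core granules (IA-2), related to tyrosine phosphatases and known as an autoantigen of type 1 diabetes, and lies at chr1:75223671-75241146 on the minus strand of GRCm39. Untreated, Ptprn was at 35.1 and 38.2 CPM in sgCtrL and at 8.44 and 7.90 CPM in Sin3Bsg1, 4.48-fold lower (log2 fold change -2.16, SE 0.085, adjusted p = 1.55e-11). Ptprn without IFNγ was at 29.6, 30.1 and 29.1 CPM against 15.9, 15.1 and 15.2 CPM, 1.92-fold lower (-0.94, SE 0.082, adjusted p = 8.61e-07). With IFNγ it was at 34.8, 28.5 and 27.8 CPM against 13.4, 13.3 and 12.2 CPM, 2.34-fold lower (-1.22, SE 0.083, adjusted p = 5.87e-08). Every Sin3Bsg1 library lay below every sgCtrL library of its comparison. Without sgCtrL with IFNγ replicate 1 the last value was -1.11 (adjusted p = 2.51e-09). Ptprn overlaps the opposite-strand gene Gm28294, and whether the counting used strand is not given in the sources used here.

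The other granule proteins gave little. Chgb, a granin of the granule core, was the only other member of this role tested, and only in the untreated experiment, where it had 5 and 8 counts in sgCtrL and 12 and 11 in Sin3Bsg1 (log2 fold change 0.72, SE 0.62, adjusted p = 0.429). Chgb had at most 5 counts in a library of the IFNγ experiment. Chga had 5 and 4 counts in sgCtrL and 1 and 3 in Sin3Bsg1 of the untreated experiment and was not tested.

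Snap25, a SNARE protein of the plasma membrane that drives vesicle fusion, was lower in all 3 comparisons. Untreated, Snap25 was at 11.5 and 10.8 CPM in sgCtrL and at 8.38 and 6.51 CPM in Sin3Bsg1 (log2 fold change -0.58, SE 0.13, adjusted p = 0.00222). Snap25 without IFNγ was at 8.41, 8.56 and 8.66 CPM against 5.56, 6.96 and 5.29 CPM (-0.53, SE 0.15, adjusted p = 0.0211). With IFNγ it was at 5.57, 8.27 and 7.34 CPM against 4.30, 3.67 and 4.08 CPM (-0.82, SE 0.15, adjusted p = 0.00149). The groups were apart each time. Without IFNγ the call rested on all libraries: it held only when Sin3Bsg1 replicate 2 was left out, and leaving out any other of the 6 gave adjusted p = 0.0547 to 0.0916. With IFNγ and without sgCtrL replicate 1, the library with the lowest sgCtrL value, it was -0.95 (adjusted p = 9.39e-05).

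Syt7 fell in the IFNγ experiment. It was at 50, 47.8 and 53.1 CPM in sgCtrL and at 43.1, 39.4 and 38.6 CPM in Sin3Bsg1 without IFNγ (log2 fold change -0.31, SE 0.061, adjusted p = 0.00181). With IFNγ it was at 43.1, 38.9 and 40.4 CPM against 34.5, 34.2 and 36.0 CPM (-0.22, SE 0.062, adjusted p = 0.0208). Untreated, Syt7 was at 39.5 and 41.2 CPM against 39.3 and 38.0 CPM, which the test did not separate (-0.061, SE 0.054, adjusted p = 0.448). With IFNγ the call was lost without sgCtrL replicate 1 (-0.17, adjusted p = 0.0733), Sin3Bsg1 replicate 1 (-0.22, adjusted p = 0.0544) or Sin3Bsg1 replicate 2 (-0.21, adjusted p = 0.0763).

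Cplx2, a complexin that clamps and promotes SNARE-driven fusion, was the only member called higher, and it rests on few reads. Without IFNγ it had 0, 2 and 6 counts in sgCtrL and 30, 15 and 24 in Sin3Bsg1 (log2 fold change 2.80, SE 0.66, adjusted p = 0.0073). With IFNγ it had 2, 7 and 3 counts against 9, 16 and 22 (1.89, SE 0.63, adjusted p = 0.0532). The sgCtrL libraries stayed at 7 counts or fewer, and the filter on low counts kept Cplx2 through Sin3Bsg1 libraries, where it was high. A member low with both guides could not be called, so this rise is no evidence about the members as a set. The groups did not overlap in either comparison, and without sgCtrL with IFNγ replicate 1 the second value was 1.67 (adjusted p = 0.107). Libraries of the untreated experiment had 23 and 10 counts against 20 and 21 (0.22, SE 0.48, adjusted p = 0.78), and there its sign turned to -0.25 without sgCtrL replicate 2. With IFNγ the value passed the threshold with DESeq2 (adjusted p = 0.0458), without a filter on low counts (adjusted p = 0.0201) and without Sin3Bsg1 replicate 1 (2.16, adjusted p = 0.0478). A filter of 10 counts in every library removed Cplx2, and then 0 members were higher without IFNγ.

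The remaining vesicle proteins tested in both experiments were called in no comparison of the guides. Unc13a, a priming factor, was the one with both cores near its start site (above). It was at 13.0 and 14.9 CPM in sgCtrL and 14.6 and 16.5 CPM in Sin3Bsg1 of the untreated experiment (log2 fold change 0.16, adjusted p = 0.27). Without IFNγ it was at 13.4, 14.5 and 14.8 CPM against 17.3, 18.1 and 17.2 CPM, with no overlap (0.30, 95% interval 0.0397 to 0.56, adjusted p = 0.144), and it passed the threshold when only these 6 libraries were fitted (adjusted p = 0.00583). With IFNγ the log2 fold change was 0.27 (adjusted p = 0.21) and 0.099 without sgCtrL replicate 1, whose 8.90 CPM was the lowest value of Unc13a. Unc13a overlaps Colgalt1 and Jak3 on the opposite strand.

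Stx1a, the SNARE partner of SNAP25, lay at 21.8 to 25.4 CPM in the untreated libraries and at 10.5 to 13.3 CPM in the others, with intervals of the log2 fold change between -0.216 and 0.28 over the 3 comparisons. Rab3a, a GTPase of synaptic vesicles, had intervals between -0.408 and 0.444. Syp, a vesicle membrane protein, was at 0.481 to 1.63 CPM and Syn1, a vesicle phosphoprotein, at 0.258 to 1.84 CPM. Their intervals reached from -0.622 to 1.34 and from -1.69 to 0.977, so that these libraries leave wide limits for both. Syt1 and Cplx1 were tested only in the untreated experiment, with log2 fold changes of -0.73 (SE 0.51) and -0.23 (SE 0.57).

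Tubb3, the neuronal β-tubulin used as a marker of neurons, was lower in Sin3Bsg1 cells that had not been given IFNγ. It lies at chr8:124138163-124150092 on the plus strand of GRCm39 and overlaps no other annotated gene. Untreated, Tubb3 was at 18.2 and 17.4 CPM in sgCtrL and at 12.3 CPM in both Sin3Bsg1 libraries (log2 fold change -0.53, SE 0.088, adjusted p = 1.85e-04). Without IFNγ it was at 14.0, 16.0 and 14.1 CPM against 8.72, 9.57 and 10.0 CPM (-0.65, SE 0.093, adjusted p = 1.28e-04). With IFNγ the groups overlapped at 86.4, 72.5 and 72.4 CPM in sgCtrL and 79.0, 80.1 and 79.6 CPM in Sin3Bsg1 (0.047, 95% interval -0.0874 to 0.182, adjusted p = 0.716). Without sgCtrL with IFNγ replicate 1 this value was 0.15 (adjusted p = 0.077).

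The neurofilament subunits Nefl, Nefm and Nefh were tested only in the untreated experiment, at 4 to 16 counts in a library, with log2 fold changes of -0.094 (SE 0.62), 0.084 (SE 0.55) and -0.094 (SE 0.69). Nefl and Nefm overlap each other on opposite strands, so their reads cannot be told apart without strand. Neither Nefl nor Nefm had a count in any library of the IFNγ experiment.

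Kcnh2, which codes for the ERG potassium channel, fell in the untreated experiment. It was at 10.0 and 9.63 CPM in sgCtrL and at 3.92 and 2.66 CPM in Sin3Bsg1, 2.98-fold lower (log2 fold change -1.58, SE 0.17, adjusted p = 1.72e-06). Kcnh2 without IFNγ was at 2.32, 1.5 and 2.03 CPM against 1.64, 1.65 and 1.38 CPM, where the groups overlapped (-0.32, SE 0.26, adjusted p = 0.476). With IFNγ it was at 1.59, 1.02 and 1.40 CPM against 0.585, 0.808 and 0.859 CPM, where they did not (-0.82, SE 0.29, adjusted p = 0.0704). Without sgCtrL with IFNγ replicate 1 the last value was -0.66 (adjusted p = 0.184), and without sgCtrL with IFNγ replicate 2 it was -0.98 (adjusted p = 0.0473). With the libraries thinned to the smallest total it was -0.99 (adjusted p = 0.0407), and with only genes at 10 counts or more in every library -0.82 (adjusted p = 0.0442).

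Bdnf, a neurotrophin, was at 14.7, 16.6 and 14.0 CPM in sgCtrL and at 12.1, 9.66 and 11.6 CPM in Sin3Bsg1 without IFNγ (log2 fold change -0.45, SE 0.11, adjusted p = 0.011). This call was lost without Sin3Bsg1 replicate 2 (-0.36, adjusted p = 0.0628) or sgCtrL replicate 2 (-0.37, adjusted p = 0.0703). With IFNγ it was at 15.1, 13.6 and 12.3 CPM against 11.2, 12.3 and 13.7 CPM (-0.13, adjusted p = 0.468; -0.049 without sgCtrL with IFNγ replicate 1), and in the untreated experiment at 16.9 and 18.6 CPM against 18.4 and 17.9 CPM (0.032, adjusted p = 0.822). Cacna1a, a subunit of the P/Q-type calcium channel, had log2 fold changes of -0.038, 0.14 and 0.11 in the untreated experiment, without IFNγ and with IFNγ, with intervals between -0.213 and 0.414. Rundc3a, a neuronal effector of RAP2, was at 0.516 to 1.25 CPM in all libraries, with intervals between -0.975 and 1.31.

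Tubb3 was the member with the largest change with IFNγ. In sgCtrL cells Tubb3 was 5.22-fold higher with IFNγ (log2 fold change 2.38, SE 0.080, adjusted p = 9.83e-13) and in Sin3Bsg1 cells 8.44-fold higher (3.08, SE 0.082, adjusted p = 4.79e-14). Without sgCtrL with IFNγ replicate 1 the first value was 2.29 (adjusted p = 1.87e-15). The difference between the guides' effects with and without IFNγ was 0.69 on the log2 scale (SE 0.12, adjusted p = 0.0308, edgeR's interaction term). Tubb3 was the only member past the threshold in that test, in which 17 of 14913 genes (0.114%) were called, 0.0805% higher and 0.0335% lower. At an unadjusted p of 0.05, passed by 5.42% of genes, Ptprn was the only other member (-0.28). The value stayed at 0.62 to 0.78 when each of the 12 libraries was left out in turn, but its adjusted p was under 0.05 only without sgCtrL with IFNγ replicate 1 (4.71e-04) and ran from 0.0666 to 0.168 in the other 11 fits.

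In sgCtrL cells 1 member rose with IFNγ, Tubb3, and 1 fell, Syt7 (log2 fold change -0.30, SE 0.061, adjusted p = 0.00144), where 30.2% of all genes were called (15.7% higher and 14.5% lower) and 39.6% passed an unadjusted p of 0.05. In Sin3Bsg1 cells Tubb3 rose and 5 members fell, where 28.4% were called (16.1% higher and 12.3% lower). These were Syn1 (-1.30, SE 0.43, adjusted p = 0.0332), Kcnh2 (-1.05, SE 0.29, adjusted p = 0.0116), Snap25 (-0.56, SE 0.16, adjusted p = 0.0128), Ptprn (-0.25, SE 0.087, adjusted p = 0.0414) and Syt7 (-0.21, SE 0.062, adjusted p = 0.0177). The groups of Syn1 overlapped, at 6 to 16 counts with IFNγ and 15 to 40 without. Syn1 also overlaps Araf and Timp1 on the opposite strand. The 4 that passed in Sin3Bsg1 cells alone had log2 fold changes of -0.29 (Syn1), -0.55 (Kcnh2), -0.27 (Snap25) and 0.032 (Ptprn) in sgCtrL cells, and their interaction terms had adjusted p = 0.973, 0.984, 0.984 and 0.885, so a difference between the guides in the response to IFNγ was not shown for them. Without sgCtrL with IFNγ replicate 1 the values in sgCtrL cells were -0.14 (Syn1), -0.70 (Kcnh2), -0.14 (Snap25) and -0.083 (Ptprn). Rest did not pass in either (-0.043 and 0.022, adjusted p = 0.566 and 0.799). Without Sin3Bsg1 with IFNγ replicate 3 (Syn1 and Ptprn, adjusted p = 0.124 and 0.101), Sin3Bsg1 without IFNγ replicate 1 (Syn1, Ptprn and Syt7, 0.0596, 0.126 and 0.106) or Sin3Bsg1 without IFNγ replicate 2 (Syn1, Ptprn and Snap25, 0.195, 0.0762 and 0.0766) some of these calls were lost, as was that of Syn1 without Sin3Bsg1 with IFNγ replicate 1 (0.0712) and that of Ptprn without Sin3Bsg1 without IFNγ replicate 3 (0.0764).

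**Figure D4:**
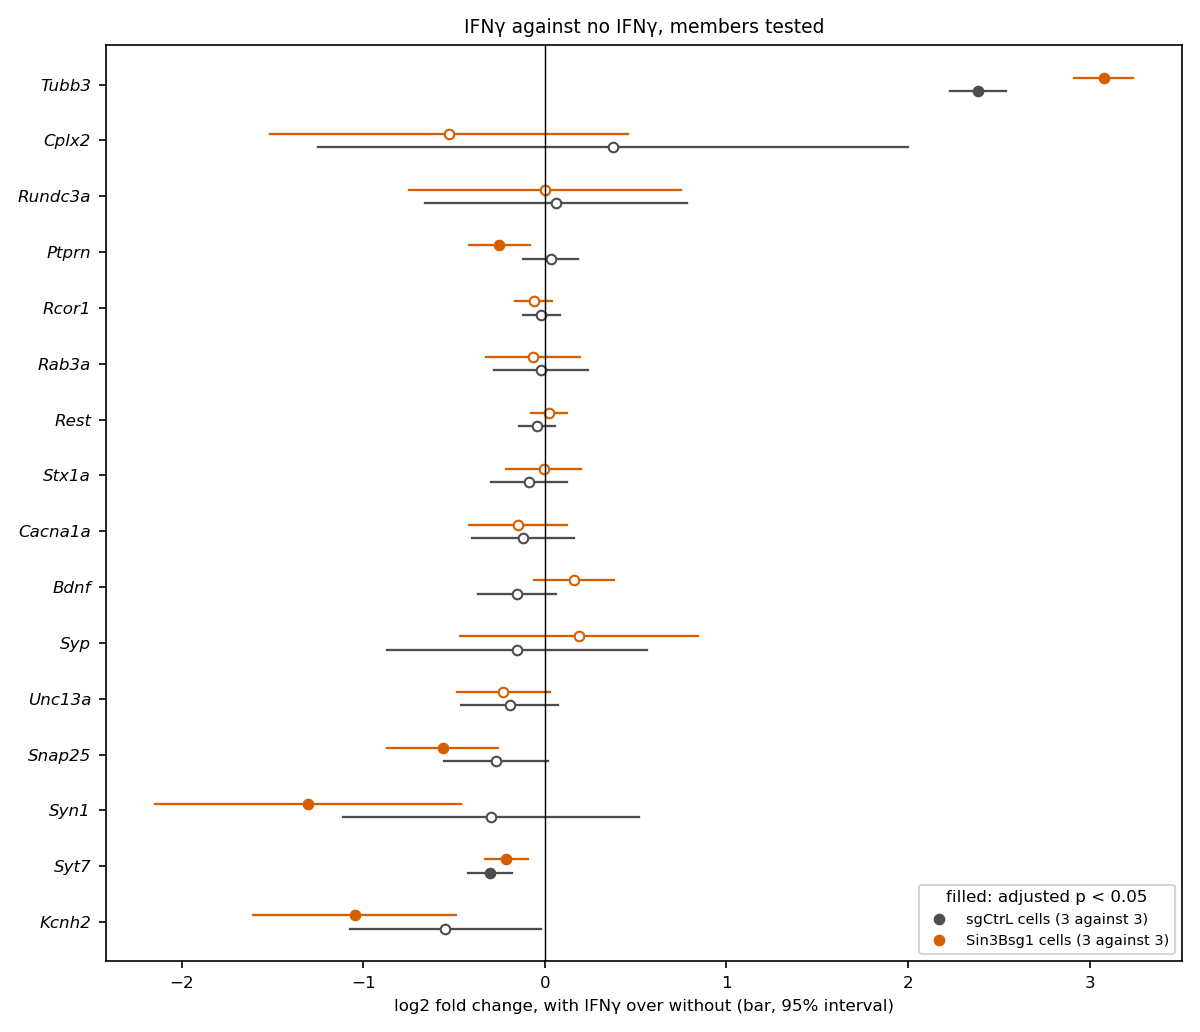
Log2 fold change with IFNγ over without (x axis) for the 16 members tested (y axis) in sgCtrL (grey) and Sin3Bsg1 (orange) cells, with 95% intervals and filled points for an adjusted p under 0.05. Tubb3 stands alone on the right at 2.38 and 3.08, and the other filled points are below 0.

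The REST corepressor machinery was measured as a list of 17 genes, all tested, which includes Sin3b. In the untreated experiment 10 fell, Sin3b, the targeted gene, among them, and 0 rose, where 16.0% of all genes fell and 15.1% rose. With edgeR at an unadjusted p of 0.05 12 were called, and 39.7% of all genes. In the IFNγ experiment 1 rose and 4 fell without IFNγ, and 0 rose and 3 fell with IFNγ, Sin3b again among the falls. Sin3b apart, the falls were small. Phf21a, a subunit of the KDM1A complex, changed by -0.28, -0.17 and -0.17 on the log2 scale in the untreated experiment, without IFNγ and with IFNγ (adjusted p = 4.61e-05, 0.0396 and 0.0352), and the deacetylase Hdac2 by -0.14, -0.22 and -0.23 (adjusted p = 0.0117, 0.0111 and 0.00767). Rcor3, a relative of Rcor1, was the gene that rose without IFNγ (0.25, adjusted p = 0.0328). The count higher was 0 there in 4 of the 6 fits that left out a library (Sin3Bsg1 replicate 2 or 3, sgCtrL replicate 1 or 3), and the count lower was 2 without Sin3Bsg1 replicate 2 or sgCtrL replicate 3. With IFNγ 2 were higher without sgCtrL replicate 1 and 1 without Sin3Bsg1 replicate 2. Median log2 fold changes of the list were -0.14, -0.13 and -0.072.

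Of 23 further genes known to carry an RE1 or to be repressed by REST, 6 were tested. Kcnn4, a calcium-activated potassium channel that is also expressed in epithelia, rose in all 3 comparisons, from 63.6 to 91.3 CPM in the untreated experiment (log2 fold change 0.52, SE 0.039, adjusted p = 3.08e-08), from 50.1 to 82.2 CPM without IFNγ (0.71, adjusted p = 8.48e-07) and from 42.5 to 59.6 CPM with IFNγ (0.49, adjusted p = 4.63e-05). Grin1, the obligatory subunit of NMDA receptors, rose in the untreated experiment from 0.305 to 1.18 CPM (1.94, SE 0.46, adjusted p = 0.00415), with 1.41 (adjusted p = 0.0913) without IFNγ and 1.11 (adjusted p = 0.246) with IFNγ. In sgCtrL of the untreated experiment Grin1 lay near the limit of the filter on low counts. It needed the Sin3Bsg1 libraries, where it was high, to be tested there. Mapk8ip1, a scaffold of JNK signalling, fell in the untreated experiment (-0.20, adjusted p = 0.0352), and this list had 0 lower there whichever of the 4 libraries was left out. Its count of 2 higher became 1 without Sin3Bsg1 replicate 2. The other 3 were called in no comparison, with log2 fold changes from -0.088 to 0.63. In the untreated experiment, without IFNγ and with IFNγ, 3, 1 and 1 of the 6 were called, and 31.2%, 17.2% and 16.5% of all genes. Median log2 fold changes of the 6 were 0.083, 0.63 and 0.47, and those of all genes 0.0024, -0.0090 and 0.0036. Values above 0 numbered 4, 5 and 5 of the 6. Of 10 neuroendocrine transcription factors, among them Insm1 and Neurod1, none was tested in the untreated experiment and only St18 in the IFNγ experiment, where it was not called between the guides. Its log2 fold change was 1.11 without IFNγ, with the groups apart upward as for 18.3% of all genes, and 0.14 with IFNγ. With IFNγ over without, St18 was at -0.55 in sgCtrL, not called, and at -1.53 in Sin3Bsg1, called lower. That call was lost in 4 of the 6 fits that left out a library.

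Of 22 further synaptic vesicle and exocytosis genes 14 were tested. In the untreated experiment 4 rose and 3 fell, without IFNγ 6 rose and 2 fell, and with IFNγ 5 rose and 2 fell, beside the shares of all genes given above. With IFNγ the falls numbered 1 when any library but sgCtrL replicate 1 was left out, and without IFNγ the rises numbered 3 and the falls 1 without Sin3Bsg1 replicate 2, the rises 3 without sgCtrL replicate 3, and the falls 1 without Sin3Bsg1 replicate 3. Unc13b, a priming factor expressed in many tissues, rose from 9.01 to 14.2 CPM in the untreated experiment (log2 fold change 0.66, SE 0.10), from 3.36 to 8.89 CPM without IFNγ (1.40, SE 0.15) and from 3.65 to 9.68 CPM with IFNγ (1.41, SE 0.15), with adjusted p = 1.04e-04, 8.15e-06 and 6.48e-06. Pclo, a scaffold of the presynaptic active zone, rose by 0.86, 1.02 and 1.32 on the log2 scale (adjusted p = 3.88e-05, 0.00102 and 1.24e-04). Sv2a, a vesicle transporter-like protein, changed by -0.56, -0.51 and -0.41 (adjusted p = 0.00133, 0.0111 and 0.0442). Syngr3, a synaptogyrin of vesicle membranes, rose without IFNγ (1.23, adjusted p = 0.00897) and with IFNγ (1.03, adjusted p = 0.0182) and was at -0.087 (adjusted p = 0.909) in the untreated experiment. Of 5 genes of peptide processing, Cpe and Pam were tested, and both fell in the untreated experiment (-0.21 and -0.08, adjusted p = 0.00107 and 0.0367), with log2 fold changes between 0.0044 and 0.077 in the IFNγ experiment. The count of 2 became 1 when either Sin3Bsg1 library or sgCtrL replicate 2 was left out.

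Markers of other cell types moved beside these results. All 6 ductal markers rose in Sin3Bsg1 in the untreated experiment, 3 of 6 without IFNγ and 5 of 6 with IFNγ, where 15.1%, 7.89% and 8.62% of all genes rose. Their sum was 4598 to 4619 CPM in sgCtrL and 6069 to 6111 CPM in Sin3Bsg1 of the untreated experiment. The sum of 5 fibroblast markers, nearly all of it Pdgfra and Pdgfrb, was 99.6 to 99.7 CPM in sgCtrL and 29.8 to 32.9 CPM in Sin3Bsg1 there, while Lum and Postn had 3 counts or fewer in each library. In sgCtrL without IFNγ that sum was 261 to 268 CPM, and in Sin3Bsg1 without IFNγ 223 to 234 CPM. With IFNγ it was 184 to 186 CPM in sgCtrL and 160 to 171 CPM in Sin3Bsg1. The sum hides opposite changes of the 2 fibroblast markers tested in this experiment. Between the guides 1 was called higher and 1 lower, at log2 fold changes of 0.19 and -0.26 without IFNγ and 0.27 and -0.21 with IFNγ. Of the neuron markers Map2 was lower in Sin3Bsg1 without IFNγ (-0.35, adjusted p = 0.0265) and with IFNγ (-0.44, adjusted p = 0.0064), and its log2 fold change in the untreated experiment was 0.23 (adjusted p = 0.136). It was 1 of 3 neuron markers tested in the IFNγ experiment, and the other 2 were not called. Their log2 fold changes were -0.36 and 1.16 without IFNγ, and 0.62 and 0.72 with IFNγ, opposite to Map2. The part of these markers in the results above was not tested.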

How the data were processed

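RNA-seq of 16 libraries was used as deposited by the authors, in 2 tables of estimated counts per gene, 1 for each experiment. The study's methods name HISAT2, mm9 and featureCounts, while the submitters' processing notes name fastp, HISAT2, StringTie and mm39. The strand setting and annotation are not given in the sources used here. Control columns named for a lacZ guide were taken as sgCtrL. Estimated counts were rounded, and 324 loci without a gene name were left out of the untreated table. The authors' group means were not used.

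Each table was fitted on its own with edgeR 4.0.16 in R 4.3.3 (filterByExpr, TMM, quasi-likelihood test, two-sided), with p-values adjusted by Benjamini-Hochberg over all genes tested and called at 0.05. TPM came from these counts and the tables' gene lengths, and CPM from the counts and the TMM-adjusted library totals of the genes tested. The 39 genes and the lists were chosen with earlier results of these data known. Members called between the guides with a mean of at least 0.5 CPM in a group were given by library, and from each list at most the 4 called genes with the largest change in a comparison were named. Intervals are 1.96 SE to each side. The fits were tested on simulated data. DESeq2 1.42.0, other size factors and filters, a fit with the replicate number as a block, thinning, a fold limit and leaving out each library were tried as alternatives. An allele of the line and single genes of the lists are not reported here.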

Additional observations from a re-analysis of the deposited data

Results flagged for a closer look

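In the test of the difference between the guide's effects with and without IFNγ, Tubb3 gave 0.69 on the log2 scale (SE 0.12, adjusted p = 0.0308, edgeR's interaction term). Its adjusted p was over the threshold with the replicate number as a block (0.0658), with the libraries thinned (0.0944) and in 11 of the 12 fits that left out a library (0.0666 to 0.168).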

How the results depend on the processing

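Of the member counts recomputed under the alternatives that keep all libraries, 79 stayed within 1.5 times the reported count and 13 moved. An unadjusted p under 0.05 with a fold of at least 1.5 gave 2 lower in the untreated experiment, 2 lower without IFNγ, 1 higher with IFNγ, and with IFNγ over without 0 lower in sgCtrL and 2 lower in Sin3Bsg1. DESeq2 gave 1 higher with IFNγ (Cplx2), and its adjusted p for Ptprn with IFNγ over without in Sin3Bsg1 was 0.0512. With no filter on low counts 39 and 33 members could be tested, 2 were higher without IFNγ (Cplx2 and Unc13a) and 1 with IFNγ. A floor of 10 counts per library left 0 higher without IFNγ and 5 lower with IFNγ. Fitting only the 6 libraries of the contrast gave 2 higher without IFNγ. Thinning gave 0 members in the interaction test (Tubb3 0.67, adjusted p = 0.0944) and turned Rcor1 with IFNγ to 0.0050.

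Replicate numbers paired the libraries weakly at most. Correlations of the deviations of same-numbered libraries ran from -0.029 to 0.12 (median 0.017) in the IFNγ experiment, and those of differently numbered libraries from -0.13 to 0.060 (median -0.015). The highest was between the guides with IFNγ, for replicate 1. In the untreated experiment they were 0.013 and -0.013. With the replicate number as a block 0 members passed the interaction test (Tubb3 0.69, adjusted p = 0.0658), and no other call of a named member changed.

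When each library was left out in turn, members higher numbered 0 to 1 in the untreated experiment, 1 to 1 without IFNγ and 0 to 1 with IFNγ, and members lower 5 to 5, 4 to 5 and 2 to 4. With IFNγ over without, 2 to 5 members were lower in Sin3Bsg1, and 0 to 1 passed the interaction test. Where this left 1 library in a group, that library was assumed to vary like the others. Signs turned for Bdnf (-0.036 to 0.10, lowest without sgCtrL replicate 1) and Cplx2 (-0.25 to 0.93, lowest without sgCtrL replicate 2) in the untreated experiment, for Rcor1 without IFNγ (-0.012 to 0.067, lowest without Sin3Bsg1 replicate 2) and with IFNγ (-0.032 to 0.032, with 0.030 without Sin3Bsg1 replicate 3 and 0.032 without sgCtrL replicate 1), and for Ptprn with IFNγ over without in sgCtrL (-0.083 to 0.092, lowest without sgCtrL with IFNγ replicate 1). The cause was not tested. Depth limits the members left out, at 7 counts or fewer in a library.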
